A study of Mus musculus with 40 samples.

Results

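Mammary glands of pregnant mice that carried 1 working Ezh1 allele and in which Ezh2 had been deleted by a mammary Cre were compared with control glands on day 18 of pregnancy (p18), close to birth. The comparison took in every gene whose deposited value reached 1 FPKM in either group, which left 12408 of the 22552 genes in the table. FPKM divides a gene's fragment count by transcript length and library size, so levels can be compared between genes. The authors gave 1 FPKM per gene for a whole group, made from 3 libraries in each group, so no value below carries an SD and no difference could be tested.

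The mutant glands are labelled E1+/-;E2f/f;control, where control is read as the control line's Cre transgene, and are called Ezh1 het Ezh2 KO here. Their Ezh2 alleles were floxed and the Ezh1 deletion was a germline one, present in all cells. The control glands carried MMTV-Cre alone, so both groups held the recombinase, which the mouse mammary tumour virus promoter of transgenic line A drives in mammary epithelium. Whole glands were used, with their fat, vessels, nerves and immune cells, and the sources used here do not say how far cells other than epithelium recombined. Both groups were outbred, untreated and on day 18 of pregnancy, and the ages of the pregnant mice and the number of animals behind a library are not given in the sources used here. Glands with Ezh2 KO and 2 Ezh1 alleles (3 libraries) and with homozygous Ezh1 KO (2 libraries, labelled E1-/- with no Cre named) at the same stage are given beside these values. Glands of the Ezh1 het Ezh2 KO and control genotypes on day 13 of pregnancy (p13, 3 libraries each) form a separate comparison that shares no library with the one at p18.

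EZH1 and EZH2 are alternative catalytic subunits of Polycomb repressive complex 2 (PRC2), which places methyl groups on lysine 27 of histone H3 and keeps many developmental genes silent. PRC1, a second complex, recognises that mark and compacts the chromatin. In late pregnancy the mammary epithelium turns from growth to secretion under prolactin and STAT5, and milk protein mRNAs come to fill much of the gland's mRNA pool.

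Differences are log2(FPKM + 1) in Ezh1 het Ezh2 KO minus control, on which the difference of a gene with few reads comes out too small, and fold values are plain ratios of FPKM. A gene was counted as higher or lower from 1 log2 unit. By that rule 175 genes were higher (1.41%) and 221 were lower (1.78%). Among the 11853 protein-coding genes kept, 126 were higher (1.06%) and 103 lower (0.869%). The median over all genes was 0.00085, 78.0% of the genes lay within 0.5 of control, and the 5th and 95th percentiles were -0.69 and 0.70. At the edge of the filter, 159 genes were kept with a higher value between 1 and 1.1 FPKM and had a median difference of -0.05, while 181 were left out between 0.9 and 1 FPKM with a median of -0.07. A gene that reached 1 FPKM in only 1 of the 2 groups could differ only toward that group. Cd79a, Cdkn2a, Marco and Gbp1 are such genes above control, and Trim12a, Ckm and Tnfsf11 are such genes below it. The split between higher and lower depended on scaling. With a common sum of FPKM it was 103 higher and 403 lower (median shift -0.19), with a common upper quartile 137 and 266 (-0.06), and with a common sum that leaves out the milk proteins 87 and 652 (-0.33). Of the higher genes named below, Cdkn2c, Cd3e, H2-Oa, Rplp1 and Wif1 were short of the threshold with a common upper quartile (0.96 to 0.99), these and Cox8b, Lep, Retn, Ndufa2 and Mir703 with a common sum (0.81 to 0.94), and all of these with Bmi1, Cxcl13 and Expi when that sum left out the milk proteins (0.65 to 0.90). All values below are as deposited unless a scaling is named.

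**Figure D1:**
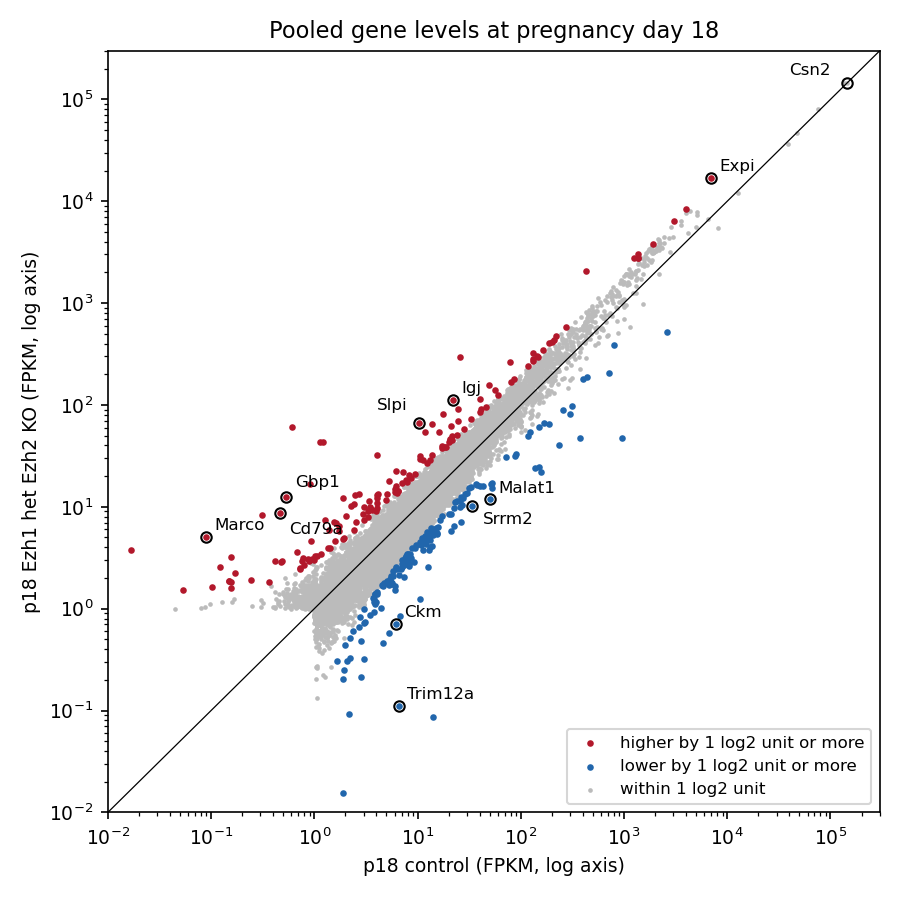
Pooled FPKM of each gene in p18 Ezh1 het Ezh2 KO (vertical) and p18 control (horizontal), both on log axes, with genes past 1 log2 unit of FPKM + 1 in colour and genes listed at 0 or below 0.01 FPKM in either group not drawn. Most points follow the line of equality, Gbp1, Cd79a, Marco, Slpi and Igj lie above it, and Trim12a, Malat1, Srrm2 and Ckm lie below it.

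The targeted genes came first as a check of the labels. Ezh1 stood at 3.41 FPKM in Ezh1 het Ezh2 KO, 7.34 in Ezh2 KO, 0.627 in Ezh1 KO and 7.37 in control, so the glands with 1 allele held 0.463 of the control level. Ezh2 stood at 6.24 FPKM in Ezh1 het Ezh2 KO, 6.41 in Ezh2 KO, 9.26 in Ezh1 KO and 10.01 in control. Both floxed groups lay below both groups with intact Ezh2, at 0.624 of control in the Ezh1 het glands. At p13 Ezh2 had 9.54 FPKM in Ezh1 het Ezh2 KO, 13.7 in Ezh2 KO, 13.8 in Ezh1 KO and 12.9 in control, so the p13 group labelled Ezh2 KO was not below control and its values below go by its label alone. A gene level does not separate transcripts with and without the deleted exons, and in whole tissue fewer cells of a type and less RNA per cell cannot be told apart.

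As deposited, none of the 13 genes for PRC2 subunits and H3K27 demethylases passed the threshold in either direction, Ezh1 and Ezh2 included. Their median was -0.34. It became -0.53 with a common sum, with 11 of 13 below control. When that sum left out the milk proteins, it was -0.66, with 12 of 13 below control. The core subunits Suz12 and Eed had 17.7 and 11.6 FPKM in Ezh1 het Ezh2 KO, against 16.8 and 10.9 in control. Aebp2, an accessory subunit, had 11.5 FPKM in Ezh1 het Ezh2 KO and 19.95 in control. Kdm6a and Kdm6b encode demethylases that remove the mark PRC2 places. Kdm6a had 6.86 FPKM in Ezh1 het Ezh2 KO and 10.3 in control, and Kdm6b 4.04 in Ezh1 het Ezh2 KO and 7.33 in control.

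Of 19 PRC1 members, 1 was higher and none lower, against 1.41% and 1.78% of all genes. That member was Bmi1, a core PRC1 subunit, with 28.8 FPKM in Ezh1 het Ezh2 KO, 20.4 in Ezh2 KO, 11.3 in Ezh1 KO and 11.4 in control, 2.54-fold the control value. Both groups with floxed Ezh2 lay above both groups without it, and the same split held at p13, where the group labelled Ezh2 KO did not have lower Ezh2, with 33.5 FPKM in Ezh1 het Ezh2 KO, 33.6 in Ezh2 KO, 15.6 in Ezh1 KO and 19.3 in control. Commd3, the gene next to Bmi1, had 141 FPKM in Ezh1 het Ezh2 KO, 104 in Ezh2 KO, 107 in Ezh1 KO and 81.9 in control. Reads shared by the neighbours could not be told apart here. The median of the PRC1 list, 0.20, turned to -0.03 with a common sum and to -0.14 with a common sum that leaves out milk proteins. Under that last scaling Bmi1 was short of the threshold.

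Genes known as Polycomb targets were mostly low. Of 34 such genes, Hox genes and other developmental regulators among them, 18 stayed below 1 FPKM in both groups, 1 was higher and none was lower. The higher gene was Cdkn2a, which encodes cell cycle inhibitors and is a textbook Polycomb target. It had 1.90 FPKM in Ezh1 het Ezh2 KO, 0.455 in Ezh2 KO, 0.267 in Ezh1 KO and 0.243 in control, 7.83-fold the control level. It reached 1 FPKM in Ezh1 het Ezh2 KO but not in control, so the filter set its direction. Igf2bp2, an mRNA-binding protein gene, was just short of the threshold with 1.68 FPKM in Ezh1 het Ezh2 KO, against 1.09 in Ezh2 KO, 0.321 in Ezh1 KO and 0.380 in control. Hoxc8 had 4.69 FPKM in Ezh1 het Ezh2 KO and 2.20 in control, but Hoxd8, the Hox gene with the highest control level in the list, had 6.12 in Ezh1 het Ezh2 KO and 8.06 in control. The 16 genes that reached 1 FPKM had a median difference of 0.30, with 12 above control and 4 below, or 0.06 with a common sum that leaves out milk proteins. Over all 34 genes, most of them near 0 in both groups, it was 0.04.

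A further cell cycle inhibitor gene passed the threshold as deposited, but not under 3 of 4 other scalings. Cdkn2c had 44.96 FPKM in Ezh1 het Ezh2 KO, 57.8 in Ezh2 KO, 38.2 in Ezh1 KO and 21.5 in control, so control was the lowest of the 4 groups. Its difference of 1.03 became 0.96 with a common upper quartile, 0.81 with a common sum and 0.65 when that sum left out the milk proteins. As deposited it made, together with Cdkn2a, 2 of 8 cyclin-dependent kinase inhibitor genes that were higher, and none was lower. Cdkn1a had 62.1 FPKM in Ezh1 het Ezh2 KO and 37.7 in control. None of 20 proliferation genes passed the threshold, and their median was 0.38, or 0.01 with a common sum that leaves out milk proteins. Pcna, a clamp of the replication fork, had 111 FPKM in Ezh1 het Ezh2 KO and 72.7 in control, and Mki67 had 8.86 in Ezh1 het Ezh2 KO and 12.8 in control.

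3 low genes chosen after their values were seen were split by Ezh2 genotype. Tcfap2e, a transcription factor of the AP-2 family, had 2.54 FPKM in Ezh1 het Ezh2 KO, 1.38 in Ezh2 KO, 0.113 in Ezh1 KO and 0.122 in control. Bmp5, a bone morphogenetic protein gene, had 3.21 FPKM in Ezh1 het Ezh2 KO, 2.25 in Ezh2 KO, 0.245 in Ezh1 KO and 0.155 in control. Ifi202b, a member of a cluster of similar interferon-inducible genes, had 3.80 FPKM in Ezh1 het Ezh2 KO, 1.61 in Ezh2 KO, 0.0243 in Ezh1 KO and 0.0169 in control. In each of the 3, both groups with floxed Ezh2 were above 1 FPKM and both groups without it were below 0.3 FPKM, and at p13 all 3 also had their higher values in the groups labelled as floxed (1.84, 1.65 and 5.97 FPKM in Ezh1 het Ezh2 KO, against 0.0486, 0.310 and 0.0186 in control). The p13 group labelled Ezh2 KO, which did not have lower Ezh2, had 1.51, 3.13 and 1.61 FPKM of these genes. At p13 the split therefore went with the label and not with the Ezh2 level. Reads of Ifi202b could be split among its near copies, and the mice were outbred, so its values are uncertain.

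The secretory genes of late pregnancy were close to control as deposited, but leaned below it under other scalings. None of 15 milk protein genes was higher and 2 were lower, with a median of -0.07, and their summed level was 1.02 times the control sum. With a common sum 14 of the 15 lay below control, with a median of -0.30. When that sum left out the milk proteins, the median was -0.46. The caseins showed how close the abundant genes were. Csn2, which encodes beta-casein, had 144169 FPKM in Ezh1 het Ezh2 KO and 145905 in control, while Csn1s2a had 144306 in Ezh1 het Ezh2 KO and 134328 in control. The whey genes Wap and Lalba had 36766 and 3153 FPKM in Ezh1 het Ezh2 KO, against 38474 and 2785 in control. Spp1, which encodes osteopontin, had 7316 FPKM in Ezh1 het Ezh2 KO and 5072 in control.

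The 2 lower milk genes were both of low level. Pip, a prolactin-induced secreted protein gene, had 4.10 FPKM in Ezh1 het Ezh2 KO, 0.397 in Ezh2 KO, 1.20 in Ezh1 KO and 13.8 in control. Lpo, which encodes the milk enzyme lactoperoxidase, had 16.8 FPKM in Ezh1 het Ezh2 KO, 4.69 in Ezh2 KO, 9.43 in Ezh1 KO and 37.1 in control. In both genes all 3 mutant groups lay below control, and the Ezh1 het Ezh2 KO group was the highest of the 3. A like order held for Slc34a2, a sodium phosphate cotransporter of the alveolar membrane, with 54.4 FPKM in Ezh1 het Ezh2 KO, 13.2 in Ezh2 KO, 22.4 in Ezh1 KO and 122 in control.

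Slc34a2 and Atp7b, a copper pump that loads copper into milk, were the 2 lower genes among 16 alveolar transport genes, none of which was higher. Atp7b had 1.82 FPKM in Ezh1 het Ezh2 KO and 5.51 in control. Of 20 milk fat and lipid synthesis genes, 1 was higher and 1 lower. The list median of -0.18 became -0.41 with a common sum and -0.58 when that sum left out the milk proteins. The higher one was Dgat2, an enzyme of the last step of triglyceride synthesis, with 114 FPKM in Ezh1 het Ezh2 KO, 239 in Ezh2 KO, 61.99 in Ezh1 KO and 40.2 in control. The lower one was Lpin1, a phosphatidate phosphatase gene, with 15.3 in Ezh1 het Ezh2 KO and 31.8 in control. Fabp3, the most abundant gene of the list in control, had 6696 FPKM in Ezh1 het Ezh2 KO and 6466 in control.

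Upstream of these genes, the prolactin receptor and STAT5 list had no higher member and 1 lower member among 17. Prlr, the prolactin receptor gene, had 6.97 FPKM in Ezh1 het Ezh2 KO and 6.90 in control, and Elf5, a transcription factor of the alveolar lineage, had 759 in Ezh1 het Ezh2 KO and 698 in control. Stat5a and Stat5b had 29.9 and 14.8 FPKM in Ezh1 het Ezh2 KO, against 42.8 and 21.6 in control. The lower member was Tnfsf11, which encodes RANKL, a paracrine signal for alveolar growth, with 0.252 FPKM in Ezh1 het Ezh2 KO, 6.61 in Ezh2 KO, 5.49 in Ezh1 KO and 1.93 in control. For Tnfsf11 the Ezh1 het Ezh2 KO value lay below control while both other mutant values lay above it.

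Luminal markers lay mostly near control, while most basal markers lay below it. None of 16 luminal markers passed the threshold, and the 15 that reached 1 FPKM had a median of 0.11, which turned to -0.12 with a common sum. Krt18 and Krt8, keratins of luminal cells, had 359 and 289 FPKM in Ezh1 het Ezh2 KO, against 319 and 260.4 in control. Of 12 basal and myoepithelial markers 1 was lower, Myh11, a smooth muscle myosin gene, with 30.7 FPKM in Ezh1 het Ezh2 KO, 26.98 in Ezh2 KO, 27.7 in Ezh1 KO and 71.5 in control. Here control stood alone as the high group. Krt5 and Krt14, basal keratins, had 41.2 and 46.3 FPKM in Ezh1 het Ezh2 KO, against 46.1 and 51.2 in control. Acta2, the most abundant basal marker in control, had 661 FPKM in Ezh1 het Ezh2 KO and 854 in control. Of the 12 basal markers 10 lay below control and 2 above it. Their median was -0.15 as deposited and -0.38 with a common sum.

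**Figure D2:**
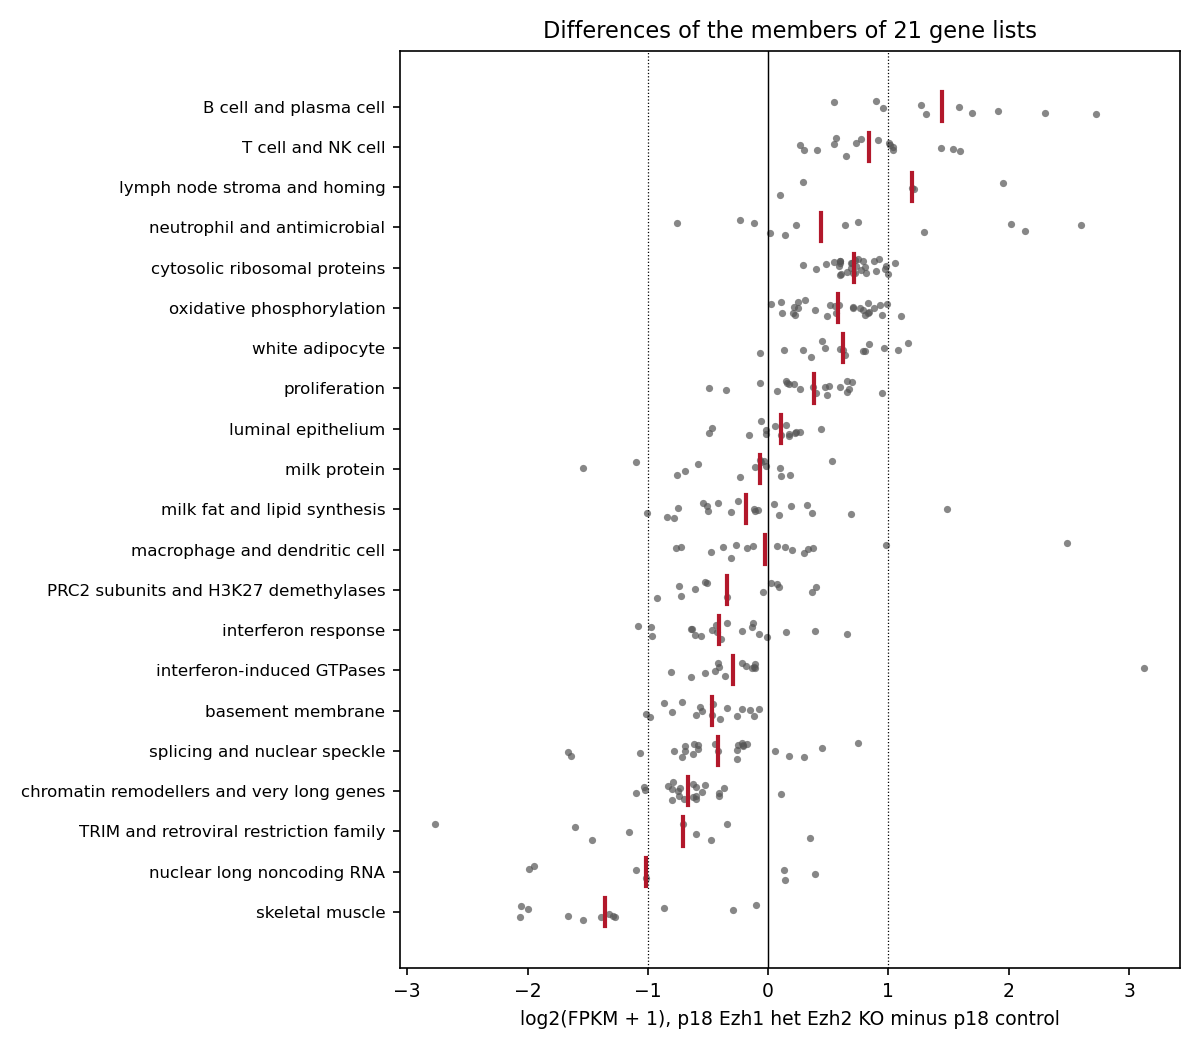
Difference of log2(FPKM + 1), p18 Ezh1 het Ezh2 KO minus p18 control, for the members of 21 gene lists that reached 1 FPKM in either group; each point is a gene, red bars are medians of the points drawn and dotted lines mark 1 log2 unit. The lymphocyte lists lie to the right, and the ribosomal protein genes form a narrow group right of 0. The skeletal muscle list lies to the left. The nuclear RNA list lies on both sides of 0, with its median to the left.

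Lymphocyte genes made up the largest group of higher genes with a shared cell type among the lists. Of 19 B cell and plasma cell markers, 7 were higher, none was lower and 9 stayed below 1 FPKM in both groups. Cd79a, a signalling chain of the B cell receptor, had 8.70 FPKM in Ezh1 het Ezh2 KO, 0.319 in Ezh2 KO, 0.428 in Ezh1 KO and 0.469 in control, 18.5-fold the control level. Igj, the joining chain of secreted IgA and IgM, had 113 FPKM in Ezh1 het Ezh2 KO, 10.8 in Ezh2 KO, 6.15 in Ezh1 KO and 22.1 in control. Cd79b, the partner of Cd79a, had 7.48 FPKM in Ezh1 het Ezh2 KO and 1.26 in control. In all 3 genes the Ezh1 het Ezh2 KO group was the highest of the 4.

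The list median was 1.45 over the 10 markers that reached 1 FPKM and 0.66 over all 19. Cd79a, Pax5 and Ms4a1 were among the markers that reached 1 FPKM in Ezh1 het Ezh2 KO but not in control. The filter set the direction of such markers. Pax5, the transcription factor that defines the B lineage, had 1.54 FPKM in Ezh1 het Ezh2 KO, 0.0142 in Ezh2 KO, 0.0190 in Ezh1 KO and 0.0535 in control. Ms4a1, a surface protein gene of B cells, had 1.01 FPKM in Ezh1 het Ezh2 KO and 0.0803 in control. No marker of the list was listed at 0 in either group. The summed level of the 19 markers was 172 FPKM in Ezh1 het Ezh2 KO, 28.7 in Ezh2 KO, 23.8 in Ezh1 KO and 34.99 in control. Igj and Ly6d made up most of that sum in each group. Ly6d had 22.5 FPKM in Ezh1 het Ezh2 KO, 13.4 in Ezh2 KO, 13.0 in Ezh1 KO and 6.24 in control, so control was its lowest group.

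T cell and natural killer cell markers were higher as well. Of 19 markers 7 were higher and none lower, and 3 stayed below 1 FPKM in both groups. The chains of the CD3 complex, which signals from the T cell receptor, were Cd3d with 5.92 FPKM in Ezh1 het Ezh2 KO and 1.38 in control, Cd3g with 10.00 in Ezh1 het Ezh2 KO and 3.05 in control, and Cd3e with 3.94 in Ezh1 het Ezh2 KO and 1.41 in control. Cd8b1, a coreceptor chain of cytotoxic T cells, had 6.95 FPKM in Ezh1 het Ezh2 KO, 1.40 in Ezh2 KO, 1.66 in Ezh1 KO and 1.63 in control. The natural killer receptor gene Ncr1 had 0.583 FPKM in Ezh1 het Ezh2 KO and 0.556 in control, and the granule protease gene Gzma had 10.5 in Ezh1 het Ezh2 KO and 8.36 in control. The summed level of the list was 111 FPKM in Ezh1 het Ezh2 KO, 52.2 in Ezh2 KO, 61.7 in Ezh1 KO and 55.7 in control, with no marker at 0.

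Genes of lymph node structure and homing were measured beside the lymphocyte lists, since mammary fat pads hold a lymph node. The labels describe its removal for glands of virgin mice and do not mention it for pregnant glands. Of 11 such genes 3 were higher and none lower, and 6 stayed below 1 FPKM in both groups. Ltb, a lymphotoxin chain made by lymphocytes, had 13.3 FPKM in Ezh1 het Ezh2 KO, 2.80 in Ezh2 KO, 3.08 in Ezh1 KO and 2.68 in control. Cxcl13, the chemokine of B cell follicles, had 7.05 FPKM in Ezh1 het Ezh2 KO and 2.51 in control. Cxcl13 also reached 6.64 FPKM in Ezh1 KO. Madcam1, another member of the list, had 8.44 FPKM in Ezh1 het Ezh2 KO and 6.73 in control. At p13 Madcam1 had 2.84 FPKM in Ezh1 het Ezh2 KO and 3.64 in control. The chemokine genes Ccl19 and Ccl21a of the lymph node T zone were listed at 0 in both groups, and Chst4, an enzyme of the high endothelial venules, had 0.313 FPKM in Ezh1 het Ezh2 KO and 0.0288 in control. The part of lymph node tissue in the lymphocyte values was not tested.

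Myeloid lists showed no such shift as a whole. Of 19 macrophage and dendritic cell markers, 1 was higher and none lower, with a median over the list of 0.04. Lyz2 and C1qa, abundant macrophage genes, had 213 and 169 FPKM in Ezh1 het Ezh2 KO, against 233 and 130.1 in control. The exception was Marco, a scavenger receptor of macrophages in lymphoid organs, with 5.09 FPKM in Ezh1 het Ezh2 KO, 0.274 in Ezh2 KO, 0.102 in Ezh1 KO and 0.0888 in control, 57.3-fold the control level. Cd209b, a lectin of macrophages in lymphoid organs and among the 15 highest differences, had 10.8 FPKM in Ezh1 het Ezh2 KO, 4.91 in Ezh2 KO, 5.40 in Ezh1 KO and 2.43 in control. The MHC class II list had 1 higher member of 11, H2-Oa, a class II cofactor of B cells, with 3.42 FPKM in Ezh1 het Ezh2 KO and 1.15 in control. The class II chain H2-Aa had 322 in Ezh1 het Ezh2 KO and 241 in control.

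**Figure D3:**
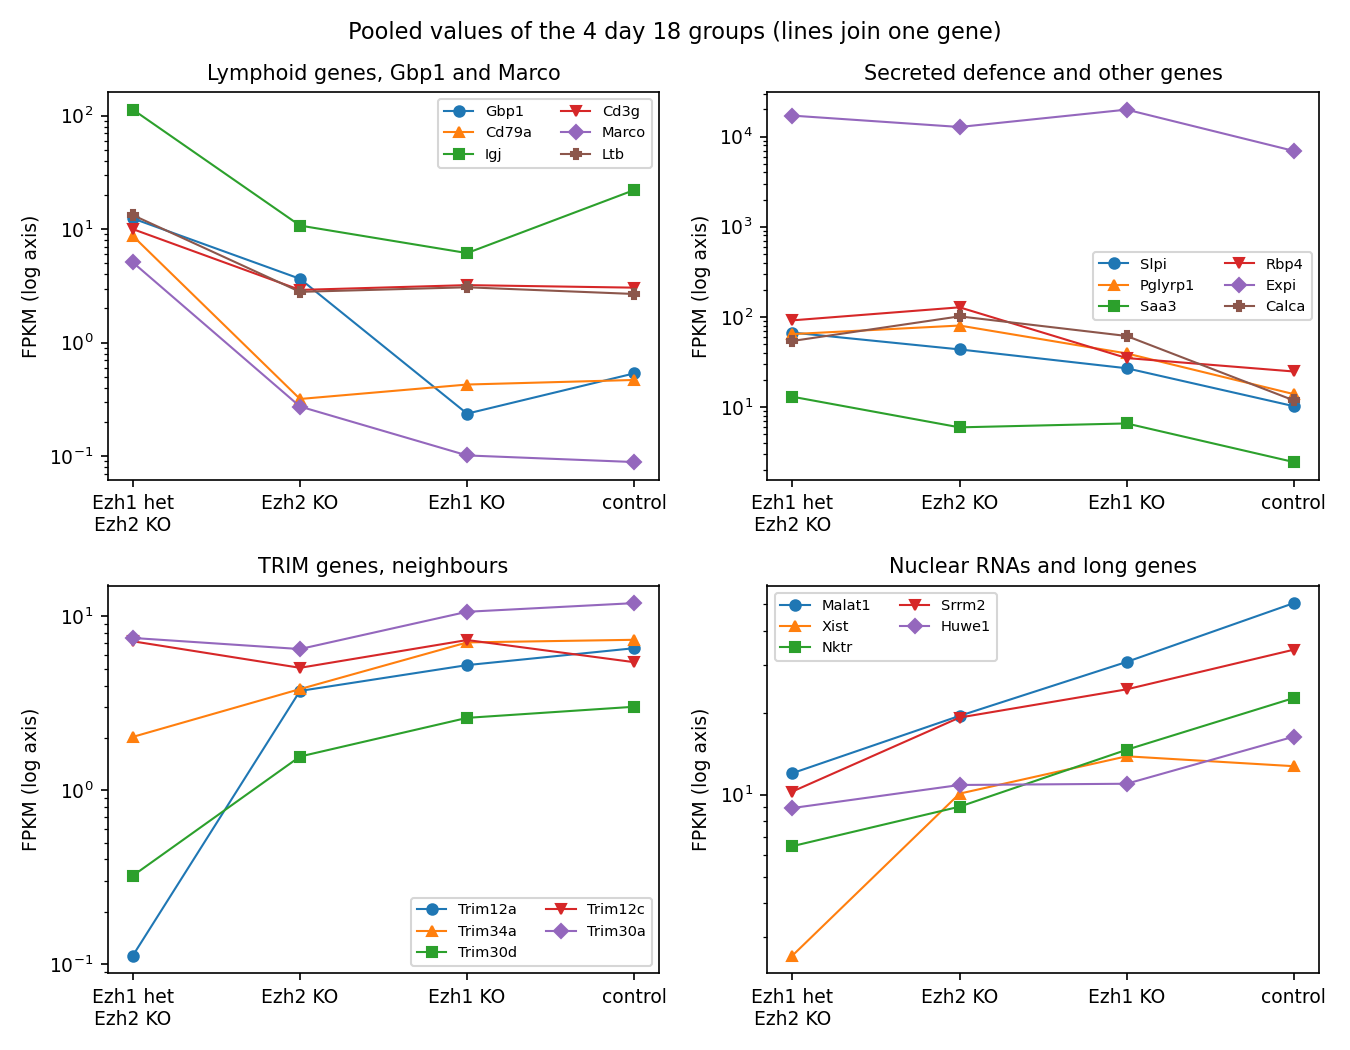
Pooled FPKM on log axes of selected genes in the 4 day 18 groups, from Ezh1 het Ezh2 KO on the left to control on the right, with lines joining the values of each gene. Cd79a, Igj, Cd3g, Marco and Ltb are high in the Ezh1 het Ezh2 KO group alone, Slpi, Pglyrp1, Saa3, Rbp4, Expi and Calca are lowest in control, and Trim12a and Trim30d have their lowest values in the Ezh1 het Ezh2 KO group.

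Secreted defence genes formed a second higher group, with another pattern across the 4 genotypes. Of 19 neutrophil and antimicrobial genes 4 were higher and none lower, and 7 stayed below 1 FPKM in both groups. Slpi, a secreted inhibitor of leukocyte proteases, had 67.1 FPKM in Ezh1 het Ezh2 KO, 43.7 in Ezh2 KO, 26.99 in Ezh1 KO and 10.3 in control. Pglyrp1, which binds bacterial peptidoglycan, had 64.6 FPKM in Ezh1 het Ezh2 KO, 80.3 in Ezh2 KO, 39.4 in Ezh1 KO and 13.9 in control. For both genes control was the lowest of the 4 groups. Saa3, an acute phase protein gene, had 13.05 FPKM in Ezh1 het Ezh2 KO, 5.97 in Ezh2 KO, 6.60 in Ezh1 KO and 2.46 in control.

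Expi (now Wfdc18), a secreted protein of the whey acidic protein family, was the most abundant gene of the 4. It had 17057 FPKM in Ezh1 het Ezh2 KO, 12764 in Ezh2 KO, 19882 in Ezh1 KO and 6928 in control. The neutrophil granule genes Mpo and Elane had 0.0553 and 0.156 FPKM in Ezh1 het Ezh2 KO, against 0.0615 and 0.172 in control, and the neutrophil genes S100a8 and S100a9 had 5.46 and 2.66 in Ezh1 het Ezh2 KO, against 4.85 and 2.12 in control. Of 15 complement and acute phase genes 1 was higher, Hp, which encodes haptoglobin, with 156 FPKM in Ezh1 het Ezh2 KO, 347 in Ezh2 KO, 157 in Ezh1 KO and 49.3 in control.

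Control was also the lowest group for several other genes among the 15 highest differences. Calca, which encodes calcitonin, had 54.2 FPKM in Ezh1 het Ezh2 KO, 102 in Ezh2 KO, 61.5 in Ezh1 KO and 11.9 in control. Rbp4, the retinol carrier of the blood, had 91.7 FPKM in Ezh1 het Ezh2 KO, 128 in Ezh2 KO, 35.02 in Ezh1 KO and 24.8 in control. Bex4 and Bex1, small X-linked genes, had 12.1 and 10.2 FPKM in Ezh1 het Ezh2 KO, against 1.89 and 2.28 in control, with the Ezh2 KO and Ezh1 KO values between them at 6.51 and 2.61 for Bex4 and 6.18 and 4.06 for Bex1.

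Gm5506 (now Eno1b), an enolase gene, had 8.37 FPKM in Ezh1 het Ezh2 KO, 40.98 in Ezh2 KO, 23.1 in Ezh1 KO and 0.311 in control. At p13 it had 18.4 FPKM in Ezh1 het Ezh2 KO, 41.5 in Ezh2 KO, 39.6 in Ezh1 KO and 0.480 in control, so that at both stages the control was near 0.4 and all mutant groups were above 8 FPKM. Gm8580, a transcribed pseudogene, had 43.3 FPKM in Ezh1 het Ezh2 KO, 48.4 in Ezh2 KO, 15.1 in Ezh1 KO and 1.13 in control, and BC002163 had 16.8 FPKM in Ezh1 het Ezh2 KO, 60.8 in Ezh2 KO, 20.1 in Ezh1 KO and 0.918 in control. Reads of such copies can be shared with near-identical genes, and the mice were outbred, so these values are uncertain.

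Interferon-inducible genes were not higher as a group at this stage. Of 20 interferon response genes none was higher and 1 was lower, Mx2, with 1.86 FPKM in Ezh1 het Ezh2 KO, 2.26 in Ezh2 KO, 6.22 in Ezh1 KO and 5.07 in control. The median of the list was -0.41. Irf7, a transcription factor that amplifies the response, had 119.9 FPKM in Ezh1 het Ezh2 KO and 161 in control, while Bst2, an antiviral membrane tether, had 601 in Ezh1 het Ezh2 KO and 458 in control. At p13 the same list had 16 of 20 members higher in the Ezh1 het Ezh2 KO glands, with a median of 1.59, so the list stood on opposite sides of 0 at the 2 stages.

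A single interferon-induced GTPase stood out. Gbp1 (now Gbp2b), a guanylate-binding protein of cell-autonomous defence, had 12.4 FPKM in Ezh1 het Ezh2 KO, 3.65 in Ezh2 KO, 0.237 in Ezh1 KO and 0.536 in control, 23.2-fold the control level and the largest positive difference of any protein-coding gene with at least 5 FPKM in either group. It was the only one of 17 interferon-induced GTPases past the threshold. Gbp2 and Gbp3, its neighbours in the same gene cluster, had 39.8 and 36.05 FPKM in Ezh1 het Ezh2 KO, against 53.6 and 39.03 in control. Gbp9 had 2.65 in Ezh1 het Ezh2 KO and 5.40 in control. At p13 Gbp1 had 11.1 FPKM in Ezh1 het Ezh2 KO, 3.20 in Ezh2 KO, 0.434 in Ezh1 KO and 0.224 in control, so both groups labelled as floxed for Ezh2 were above the other 2 at both stages.

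The promoters of Gbp1 and of these 2 neighbours are printed because each gene has an entry with the same motif while their levels differ. Each runs 5′ to 3′ on the plus strand of mouse chromosome 3 in RefSeq's GRCm38.p6, from 250 bases before the start of transcription to 50 after it, at chr3:142594597-142594896 for Gbp1, chr3:142620413-142620712 for Gbp2 and chr3:142559794-142560093 for Gbp3. Capitals mark matches to 2 copies of GAAA set 2 bases apart, the core of the interferon-stimulated response element, searched on both strands (TTTC on the strand printed).
Gbp1 (Gbp2b): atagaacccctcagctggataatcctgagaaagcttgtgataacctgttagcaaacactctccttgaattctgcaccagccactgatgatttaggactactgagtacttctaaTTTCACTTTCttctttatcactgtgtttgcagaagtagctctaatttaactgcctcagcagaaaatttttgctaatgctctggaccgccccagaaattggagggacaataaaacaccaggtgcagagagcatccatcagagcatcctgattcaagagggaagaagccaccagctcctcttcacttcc
Gbp2: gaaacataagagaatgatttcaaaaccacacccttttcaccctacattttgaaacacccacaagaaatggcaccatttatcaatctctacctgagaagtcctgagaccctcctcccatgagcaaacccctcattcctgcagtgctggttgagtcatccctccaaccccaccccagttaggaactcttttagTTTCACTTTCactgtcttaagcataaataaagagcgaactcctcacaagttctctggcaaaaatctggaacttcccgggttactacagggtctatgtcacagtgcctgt
Gbp3: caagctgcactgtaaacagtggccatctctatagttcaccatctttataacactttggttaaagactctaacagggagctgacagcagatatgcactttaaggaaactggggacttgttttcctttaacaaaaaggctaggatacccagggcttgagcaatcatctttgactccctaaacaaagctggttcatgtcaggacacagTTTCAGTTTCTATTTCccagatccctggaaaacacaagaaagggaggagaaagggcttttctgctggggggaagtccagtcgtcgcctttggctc
All matches lay on the minus strand. They ended 128 bases before the start in Gbp1, 50 before it in Gbp2 and 30 before it in Gbp3, where 2 matches overlap. RefSeq gives Gbp3 a further promoter entry at chr3:142560106-142560405, which held no match and is not printed. The motif was present in 3.44% of the 32851 promoters in the RefSeq table. A search for TTCNNNGAA, the core of the interferon gamma activated site and of STAT sites, found no match in these windows, and 8.30% of all promoters held that motif. A match is only a match of letters and says nothing of binding.

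The TRIM genes of retroviral restriction held the largest negative difference of any protein-coding gene with at least 5 FPKM in either group. Of 11 members of this list 4 were lower and none higher. Trim12a, a relative of the primate restriction factor TRIM5, had 0.112 FPKM in Ezh1 het Ezh2 KO, 3.73 in Ezh2 KO, 5.25 in Ezh1 KO and 6.56 in control, 58.7-fold below control. Trim34a, which lies 2 genes away in RefSeq's gene order, had 2.03 FPKM in Ezh1 het Ezh2 KO, 3.82 in Ezh2 KO, 7.09 in Ezh1 KO and 7.34 in control, and Trim30d, 7 genes away on the other side, had 0.322 FPKM in Ezh1 het Ezh2 KO, 1.56 in Ezh2 KO, 2.61 in Ezh1 KO and 3.02 in control. Trim12c and Trim30a lie between Trim12a and Trim30d and did not share this. Trim12c had 7.19 FPKM in Ezh1 het Ezh2 KO and 5.45 in control, and Trim30a had 7.52 in Ezh1 het Ezh2 KO and 11.9 in control.

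The fourth lower TRIM gene was Trim56, with 0.663 FPKM in Ezh1 het Ezh2 KO and 2.72 in control. At p13 Trim12a had 2.20 FPKM in Ezh1 het Ezh2 KO, 7.08 in Ezh2 KO, 7.93 in Ezh1 KO and 7.40 in control, again the lowest in Ezh1 het Ezh2 KO. Trim34a at p13 had 6.36 FPKM in Ezh1 het Ezh2 KO and 6.09 in control. The genes of this cluster are close copies of each other, so the authors' counting could have split reads among them.

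Fat cell markers were mostly above control. Of 15 white adipocyte markers 2 were higher and none lower, and 14 of the 15 lay above control as deposited, or 11 of 15 with a common sum that leaves out milk proteins. Lep, the leptin gene, had 49.6 FPKM in Ezh1 het Ezh2 KO, 204 in Ezh2 KO, 47.5 in Ezh1 KO and 21.7 in control. Retn, the resistin gene, had 586 FPKM in Ezh1 het Ezh2 KO, 481 in Ezh2 KO, 393 in Ezh1 KO and 276 in control, and for both genes control was the lowest group. Fabp4, the abundant fatty acid carrier of adipocytes, had 6338 FPKM in Ezh1 het Ezh2 KO and 3539 in control, and Adipoq, the adiponectin gene, had 649 in Ezh1 het Ezh2 KO and 333 in control. The summed level of the list was 11992 FPKM in Ezh1 het Ezh2 KO, 17379.5 in Ezh2 KO, 13069 in Ezh1 KO and 7159 in control. Dgat2, Hp, Rbp4 and Saa3 are also made by adipocytes, and the part of fat in their values was not tested.

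Among 8 brown fat markers, Cox8b was higher, with 39.9 FPKM in Ezh1 het Ezh2 KO, 87.2 in Ezh2 KO, 39.95 in Ezh1 KO and 17.3 in control. Ucp1, the defining uncoupling protein of brown fat, had 1.82 FPKM in Ezh1 het Ezh2 KO, 32.4 in Ezh2 KO, 1.36 in Ezh1 KO and 0.964 in control, so the Ezh2 KO group alone was high. Cidea, which lactating epithelium also makes, had 233 FPKM in Ezh1 het Ezh2 KO and 277 in control.

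Skeletal muscle markers were the list with the most lower members. Of 15 markers 9 were lower and none higher, but the levels were small. The summed level was 21.05 FPKM in Ezh1 het Ezh2 KO, 27.7 in Ezh2 KO, 211 in Ezh1 KO and 65.04 in control, and at p13 it was 57.9 in Ezh1 het Ezh2 KO and 11597 in control. Ckm, the muscle creatine kinase gene, had 0.715 FPKM in Ezh1 het Ezh2 KO, 0.260 in Ezh2 KO, 20.7 in Ezh1 KO and 6.13 in control. Tnnt3, Tnnc2 and Tnni2, subunits of the troponin complex, had 0.857, 0.577 and 1.68 FPKM in Ezh1 het Ezh2 KO, against 6.76, 5.27 and 6.02 in control. None of the 15 markers was at 0 in either group. These genes belong to another tissue than the mammary gland, and how much muscle each library held was not tested.

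Basement membrane genes lay below control without passing the threshold, apart from 1. All 17 basement membrane genes lay below control under every scaling tried, with a median of -0.47. Lama1, a laminin chain, was the lower member with 2.55 FPKM in Ezh1 het Ezh2 KO, 2.38 in Ezh2 KO, 2.98 in Ezh1 KO and 6.18 in control. Lamb3 and Lama3, chains of the epithelial laminin, had 17.7 and 1.71 FPKM in Ezh1 het Ezh2 KO, against 29.8 and 3.93 in control. None of 16 fibroblast and collagen genes and none of 13 endothelial genes passed the threshold, with medians over all members of -0.21 and -0.07. Of the 16 fibroblast and collagen genes 12 lay below control and 4 above it.

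Signalling genes among the lowest differences were Erbb3 and Dvl3. Erbb3, a receptor for neuregulins that works with EGF receptors, had 5.42 FPKM in Ezh1 het Ezh2 KO, 10.3 in Ezh2 KO, 8.34 in Ezh1 KO and 15.4 in control. Dvl3, a transducer of Wnt signals, had 3.78 FPKM in Ezh1 het Ezh2 KO, 5.40 in Ezh2 KO, 5.42 in Ezh1 KO and 11.2 in control, and Cdcp1, a transmembrane substrate of Src kinases, had 5.73 FPKM in Ezh1 het Ezh2 KO, 7.59 in Ezh2 KO, 7.33 in Ezh1 KO and 20.98 in control. In all 3 genes control was the highest of the 4 groups. Vegfa, the main angiogenic growth factor gene, had 11.04 FPKM in Ezh1 het Ezh2 KO and 23.3 in control, and was the lower one of 14 hypoxia and glycolysis genes. Per1, a clock gene that glucocorticoids induce, had 5.49 in Ezh1 het Ezh2 KO and 13.2 in control and was the lower one of 16 circadian clock genes and of 12 glucocorticoid and metallothionein genes. Erbb3 was the lower one of 18 IGF and EGF genes.

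Wif1, a secreted Wnt inhibitor gene, was the higher one of 23 Wnt and Notch genes, with 7.94 FPKM in Ezh1 het Ezh2 KO, 4.34 in Ezh2 KO, 1.86 in Ezh1 KO and 3.34 in control. Nov, a matricellular protein gene, did not pass the threshold and had 31.7 FPKM in Ezh1 het Ezh2 KO, 5.94 in Ezh2 KO, 5.27 in Ezh1 KO and 18.02 in control. No member passed the threshold among 20 heat shock and unfolded protein genes, 17 cholesterol synthesis genes, 13 tight junction genes, 22 immediate early genes, 12 MHC class I genes, 11 mast cell genes, 9 erythroid genes and 11 liver genes. Over all genes 1.41% were higher and 1.78% lower, so lists this short could hold none at those shares. The MHC class I median of 0.12 and the heat shock median of 0.07 turned negative with a common sum. The erythroid median of 0.27 became -0.07 when that sum left out the milk proteins. Of 20 immediate early genes that reached 1 FPKM, 15 lay below control, or 19 with a common sum. Of 15 such cholesterol synthesis genes, 10 lay below control, or 14 with a common sum.

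Abundant housekeeping mRNAs lay above control together, mostly by less than the threshold. All 80 cytosolic ribosomal protein genes lay above control, with a median of 0.73, and 5 of them passed the threshold. With a common sum without milk proteins 76 of the 80 were above control, with a median of 0.33. In the list of 30 that was used with the other lists, Rplp1, a protein of the ribosomal stalk, was the higher one with 8337 FPKM in Ezh1 het Ezh2 KO, 5426 in Ezh2 KO, 6302 in Ezh1 KO and 4019.6 in control. At p13 the 80 genes had a median of -0.04. All 28 oxidative phosphorylation genes were above control too, 18 of 28 with a common sum that leaves out milk proteins, and their median was 0.58. Ndufa2, a subunit of respiratory complex I, had 476 FPKM in Ezh1 het Ezh2 KO and 220.3 in control, whereas Uqcrc1, a core subunit of complex III, had 134 in Ezh1 het Ezh2 KO and 132 in control.

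None of 14 ubiquitously expressed genes passed the threshold, and their median of 0.32 turned to -0.07 with a common sum that leaves out milk proteins.

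The difference moved with the level of a gene. Protein-coding genes with a mean of 1 to 5 FPKM over the 2 groups had a median difference of -0.09, and 38.8% of 3808 lay above control. The median was -0.04 for 4566 genes of 5 to 20 FPKM, 0.16 for 2529 genes of 20 to 100, and 0.38 for 606 genes of 100 to 1000. Of the 101 genes at 1000 FPKM and over, 92.1% lay above control, with a median of 0.69. The medians kept this order with a common sum that leaves out milk proteins except between the lowest classes, at -0.36, -0.40, -0.22, -0.01 and 0.29. At p13 the same genes had medians between -0.03 and 0.01 in all 5 classes. The summed FPKM of the group was 1151971 in Ezh1 het Ezh2 KO and 980997 in control, and the 15 milk protein genes took 41.9% of it in Ezh1 het Ezh2 KO and 48.2% in control.

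**Figure D4:**
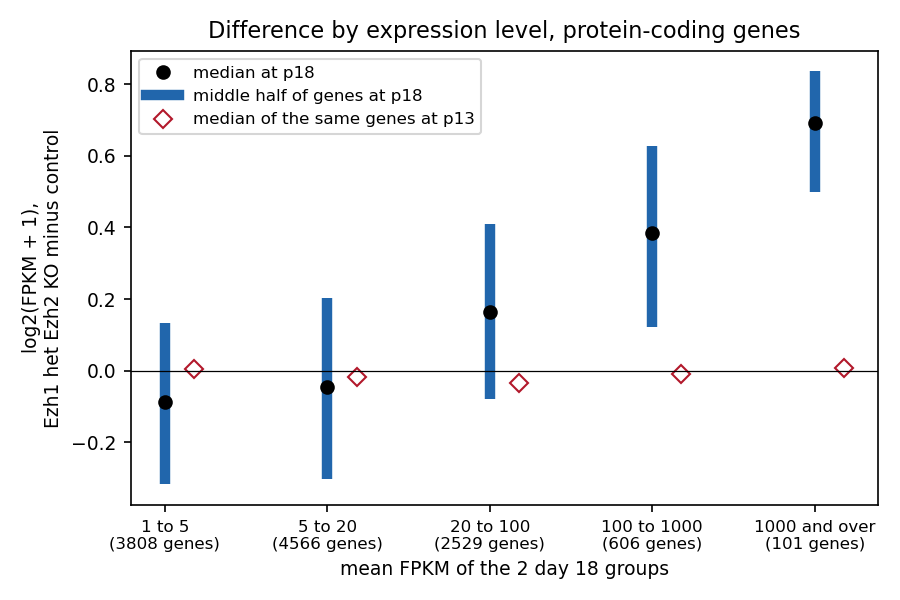
Difference of log2(FPKM + 1), Ezh1 het Ezh2 KO minus control, in 5 classes of protein-coding genes by mean FPKM of the 2 day 18 groups; black points are medians at p18, blue bars span the 25th to 75th percentile at p18, and open diamonds are the medians of the same genes at p13. The p18 median is -0.09 in the lowest class and 0.69 in the highest, and the p13 medians stay near 0.

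Nuclear RNAs and long transcripts lay on the other side. Of 10 nuclear long noncoding RNAs 4 were lower and none higher. The 7 that reached 1 FPKM had a median of -1.02, with 3 above control, and all 10 had a median of -0.27. Malat1, a nuclear speckle RNA, had 11.99 FPKM in Ezh1 het Ezh2 KO, 19.5 in Ezh2 KO, 30.7 in Ezh1 KO and 50.5 in control. Xist, the RNA that coats the inactive X chromosome, had 2.57 FPKM in Ezh1 het Ezh2 KO, 10.1 in Ezh2 KO, 13.8 in Ezh1 KO and 12.7 in control. Neat1, the scaffold of paraspeckles, had 13.5 FPKM in Ezh1 het Ezh2 KO, 37.5 in Ezh2 KO, 102 in Ezh1 KO and 30.2 in control, and Meg3, the lower one of 15 imprinted growth genes, had 0.306 in Ezh1 het Ezh2 KO and 1.65 in control. For all 4 RNAs the Ezh1 het Ezh2 KO group was the lowest of the 4 groups. Snhg1 and Gas5, host genes of small nucleolar RNAs, were not lower, with 103 and 24.97 FPKM in Ezh1 het Ezh2 KO, against 78.1 and 22.7 in control.

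Of 25 splicing and nuclear speckle genes 3 were lower and none higher, with a median of -0.41. Nktr and Srrm2, both serine- and arginine-rich nuclear proteins, had 6.47 and 10.3 FPKM in Ezh1 het Ezh2 KO, 9.03 and 19.2 in Ezh2 KO, 14.6 and 24.4 in Ezh1 KO, and 22.6 and 34.1 in control. The third, Sfrs18 (now Pnisr), had 3.12 FPKM in Ezh1 het Ezh2 KO and 7.63 in control. Srsf3, a splicing factor gene, had 125 in Ezh1 het Ezh2 KO and 74.2 in control, so the list was not uniform. Leng8 and Mapk8ip3, among the 15 lowest differences, had 3.79 and 1.51 FPKM in Ezh1 het Ezh2 KO, against 12.8 and 6.04 in control.

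Of 22 chromatin regulators and other very long genes 3 were lower and none higher, and 21 of the 22 lay below control, with a median of -0.66. Dst, a giant cytoskeletal linker gene, had 3.45 FPKM in Ezh1 het Ezh2 KO and 8.50 in control. Mll1 (now Kmt2a), a histone H3 lysine 4 methyltransferase, had 1.45 in Ezh1 het Ezh2 KO and 4.01 in control, and Crebbp, a histone acetyltransferase, had 1.70 in Ezh1 het Ezh2 KO and 4.51 in control. Ahnak was the exception above control, with 16.1 in Ezh1 het Ezh2 KO and 14.9 in control. RNA integrity values are not given in the sources used here, and the part of RNA quality or library preparation in the level, length and nuclear RNA patterns was not tested.

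Short noncoding RNA genes gave a large share of the lower genes. Of 180 miRNA and snoRNA genes kept, 31 were higher (17.2%) and 95 lower (52.8%), against 1.06% and 0.869% of protein-coding genes. Of the 23 higher miRNA genes 17 were listed at 0 in control, and of the 62 lower ones 49 were listed at 0 in Ezh1 het Ezh2 KO. Snord37, a guide RNA of ribosomal RNA methylation, was listed at 0 in Ezh1 het Ezh2 KO, with 2359 FPKM in Ezh2 KO, 1949 in Ezh1 KO and 3612 in control. Snord19, another such guide, was listed at 0 in Ezh1 het Ezh2 KO and at 2150.1 FPKM in control. Mir3064 had 525 FPKM in Ezh1 het Ezh2 KO, 2058 in Ezh2 KO, 4018 in Ezh1 KO and 2619 in control, and Mir703 had 3023 FPKM in Ezh1 het Ezh2 KO, 1962 in Ezh2 KO, 2257 in Ezh1 KO and 1379 in control.

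The rows of these genes stand for hairpins, not for mature miRNAs, and RNA was selected by its poly(A) tail. The 90 kept miRNA genes with a RefSeq hairpin were 61 to 131 bases long, with a median of 83. The hairpins of the 2 named miRNA genes are shown to make that length plain, from RefSeq's GRCm38.p6, on the minus strand at chr5:98475556-98475664 and chr11:106782693-106782759, with the mature miRNAs in capitals.
Mir703: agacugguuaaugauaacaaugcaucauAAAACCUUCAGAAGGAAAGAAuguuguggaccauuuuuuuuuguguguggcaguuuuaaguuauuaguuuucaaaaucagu
Mir3064: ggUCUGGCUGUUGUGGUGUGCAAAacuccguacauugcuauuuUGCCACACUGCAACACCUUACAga
A feature this short reaches a high FPKM with few fragments, and these genes were kept apart from the protein-coding counts.

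The day 13 glands gave an independent set of libraries for the same genotypes. Against their own control, the p13 glands had 446 of 13622 genes higher (3.27%) and 456 lower (3.35%), and of 12925 protein-coding genes 291 higher (2.25%) and 411 lower (3.18%). Of the 175 genes higher at p18, 54 were also higher at p13, which is 30.9% of the p18 list and 12.1% of the p13 list, and 18 were lower at p13. Of the 221 genes lower at p18, 18 were also lower at p13 (8.14% and 3.95% of the lists), and 56 were higher there. Short noncoding RNAs made up 43 of those 56 opposite genes. Among protein-coding genes, 40 were higher at both stages (31.7% of 126 and 13.7% of 291), 13 were lower at both, 10 were higher at p18 and lower at p13, and 3 were lower at p18 and higher at p13.

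**Figure D5:**
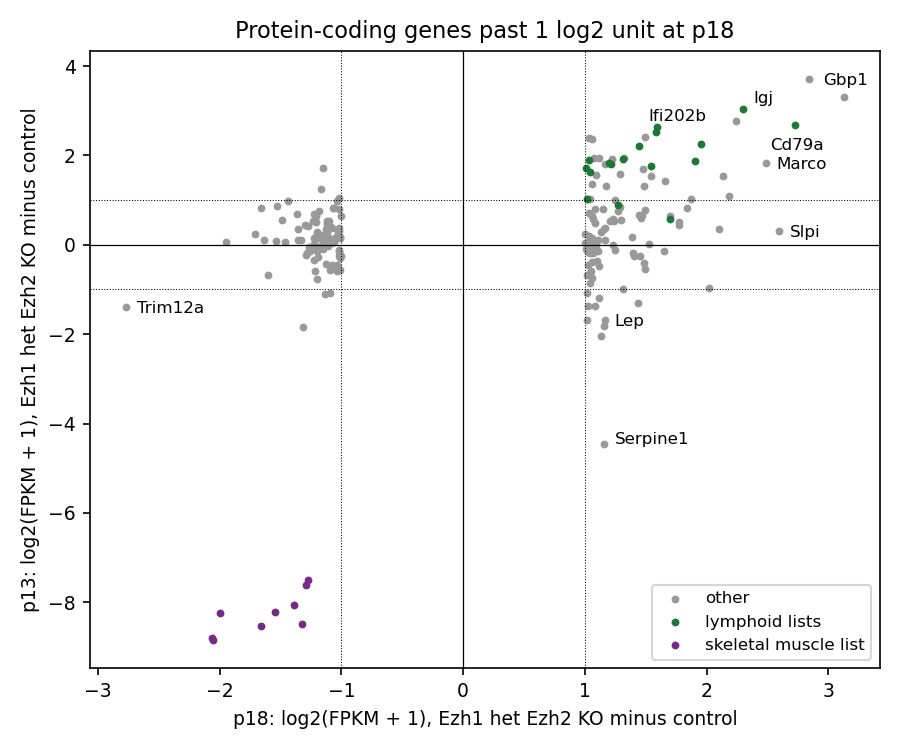
Difference of log2(FPKM + 1), Ezh1 het Ezh2 KO minus control, at p18 (horizontal) and p13 (vertical) for the 229 protein-coding genes past 1 log2 unit at p18; dotted lines mark 1 log2 unit. Most lymphoid list genes (green) lie at the upper right with Gbp1, Igj, Cd79a and Marco, the muscle genes (purple) lie far below 0 at p13, and most other lower genes lie near 0 at p13.

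Lymphocyte genes held a large share of what both stages had in common. Of the 49 members of the 3 lymphoid lists, 17 were higher at p18 and 15 of these were higher at both stages, leaving 25 other protein-coding genes among the 40. Cd79a had 10.2 FPKM at p13 in Ezh1 het Ezh2 KO and 0.755 in control, and Cd8b1 had 8.60 in Ezh1 het Ezh2 KO and 0.543 in control. Marco, the macrophage receptor, had 5.15 in Ezh1 het Ezh2 KO and 0.736 in control at p13. In 35 of the 40 genes the Ezh1 het Ezh2 KO value was the highest of the 4 groups at p18, and in 35 it was the highest at p13. The 40 genes were picked for high values in this group, which favours that place, so these counts are description only.

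The lower genes in common were mainly muscle genes. Of the 13 protein-coding genes lower at both stages 9 belonged to the muscle list, and Trim12a, Per1 and Inmt were among the other 4. Inmt, a methyltransferase gene, had 5.59 FPKM at p18 in Ezh1 het Ezh2 KO and 15.4 in control, and 6.67 in Ezh1 het Ezh2 KO and 26.3 in control at p13. The 3 genes that were lower at p18 and higher at p13 were Stat2, a mediator of type I interferon signals, Amd1, an enzyme of polyamine synthesis, and Slc34a2. Stat2 had 6.40 FPKM in Ezh1 het Ezh2 KO and 15.7 in control at p18, and 18.8 in Ezh1 het Ezh2 KO and 7.31 in control at p13. Amd1 had 1.40 in Ezh1 het Ezh2 KO and 3.88 in control at p18, and 7.53 in Ezh1 het Ezh2 KO and 3.14 in control at p13, with closely similar copies in the genome that could share its reads.

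As deposited, the milk genes stood apart from control at p13 and near it at p18. At p13, 9 of 15 milk protein genes were higher in Ezh1 het Ezh2 KO and none lower, with a summed level of 50375 FPKM in Ezh1 het Ezh2 KO and 12502 in control. At p18 the sums were 482368 FPKM in Ezh1 het Ezh2 KO and 472709 in control, but with a common sum 14 of the 15 genes lay below control. Slc34a2 was above control at p13 and below it at p18, with 7.24 FPKM at p13 in Ezh1 het Ezh2 KO and 1.51 in control, and 54.4 in Ezh1 het Ezh2 KO and 122 in control at p18. Lep was below control at p13 and above it at p18, with 127 FPKM at p13 in Ezh1 het Ezh2 KO and 452 in control, and 49.6 in Ezh1 het Ezh2 KO and 21.7 in control at p18. Whether a difference itself changed between the stages was not tested, since each group has 1 value.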

How the data were processed

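Poly(A) RNA of whole mammary glands was purified with Trizol and RNeasy columns and made into TruSeq libraries, per the labels' protocols. Per the submitters' processing notes, which give neither versions nor roles, the tools were TopHat, Bowtie, BWA, Cuffdiff, Cufflinks, HOMER, CASAVA, FastQC and Trim Galore, with build mm9. The authors deposited FPKM for 22552 genes, with 1 value per group, and no source used here gives the way libraries were combined. Depth is unknown: the most common ratio of low values covered 2.66% of 1314 genes below 0.05 FPKM, so single-read steps were not found. All 14 ubiquitously expressed genes were above 0 in both groups.

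Differences of log2(FPKM + 1) were computed from the deposited values with Python 3.11.15, pandas 2.3.3 and NumPy 2.4.6, and drawn with matplotlib 3.10.9. Genes needed 1 FPKM in either group, and the threshold was 1 log2 unit. No model could be fitted, so no p-value is given. The counting was checked on simulated data. Symbols were matched to RefSeq GRCm38.p6 for names, types and neighbours: 20004 matched exactly, 2311 by synonym and 237 not at all.

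The comparison and its 48 gene lists were chosen with earlier results of these data known. Named genes are Ezh1 and Ezh2, the 15 largest differences each way with at least 5 FPKM, list members past the threshold (at most 4) and the 2 most abundant of each list, 4 noncoding genes, and the largest differences shared with p13. Tcfap2e, Bmp5, Ifi202b, Igf2bp2, Hoxc8, Commd3 and other list members given as examples were added after values were seen. Alternatives were pseudocounts of 0.1 and 5, other filters, 4 scalings and protein-coding genes alone. A threshold of 2 and leaving out short RNAs were added after seeing the data. Some genes and the nerve cell list are not reported here.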

Additional observations from a re-analysis of the deposited data

Results flagged for a closer look

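Gene lists were singled out where the median difference between Ezh1 het Ezh2 KO and control had opposite signs at the 2 stages and was at least 0.4 in size at each. These differences between stages were not tested. White adipocyte markers had a median of 0.63 at p18 and -0.63 at p13, but the p18 value was 0.40 with a common sum and 0.24 when that sum left out the milk proteins, both under that limit before rounding. Interferon response genes had a median of -0.41 at p18 and 1.59 at p13. Nuclear long noncoding RNAs had a median of -1.02 at p18, where 3 of 7 lay above control, and 0.69 at p13, and over all 10 members the p18 median was -0.27. TRIM and retroviral restriction genes had a median of -0.70 at p18 and 0.44 at p13. Unless all members are named, medians are over those with at least 1 FPKM in either group of that stage.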

How the results depend on the processing

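As reported, 175 genes were higher, 221 lower and 72 differed the same way at p18 and p13. In that order the counts were 290, 450 and 130 with a pseudocount of 0.1, 85, 97 and 20 with a pseudocount of 5, and 42, 75 and 18 with a threshold of 2 log2 units, which was added after seeing the data. Of higher and lower genes, a common sum left 103 and 403, and leaving the milk proteins out of that sum 87 and 652. Lower genes numbered 103 among protein-coding genes alone and 126 without miRNA and snoRNA genes (added after seeing the data). A pseudocount cannot reverse a gene, and the largest median shift of a scaling was -0.33. A named gene past the threshold could therefore not change its direction, and none did. No list median past the threshold changed direction either. Smaller list medians did, such as luminal markers (0.11 to -0.12) and PRC1 (0.20 to -0.03) with a common sum. Of 188 named genes 42 crossed below the threshold with a pseudocount of 5, 10 with a common sum, 5 with a common upper quartile and 14 when that sum left out the milk proteins. Others newly passed the threshold, 3 with a pseudocount of 0.1, 2 with a common sum and 2 when that sum left out the milk proteins. No paired analysis was possible because each group has 1 pooled column that carries no replicate number, and for the same reason no replicate could be left out. Depth is unknown, so counting error cannot be given for any value.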
